A study of Macaca mulatta with 16 samples.

Results

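The set described here as immediate early transcription factors holds 10 immediate early genes, most but not all of them transcription factors. They are FOS, FOSB, JUN, JUNB, JUND, EGR1, ATF3, IER2, IER3 and MYC, measured in extraocular muscle of the rhesus macaque. Their members on the arrays were all probe sets whose gene symbol in the platform annotation is one of these names, where a probe set is a group of short probes that reports one transcript. All 10 genes were found, of 19044 gene symbols in the annotation of the human array types U133A and U133B. They are read by 18 probe sets of 44928 in all, 16 of 22283 on U133A and 2 of 22645 on U133B. JUN and JUND have 4 probe sets each, EGR1 has 3 and the other genes have 1. None of the 18 probe sets carries a further gene symbol.

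Immediate early genes are transcribed within minutes of a stimulus, without the need for new protein. The FOS and JUN families form the dimeric factor AP-1, EGR1 is a zinc finger factor induced through the kinase ERK and the serum response factor, and MYC drives genes of growth and ribosome production. In skeletal muscle, contraction, stretch, exercise and injury, and also the handling of tissue, are known to induce them.

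Extraocular muscles move the eye. Their orbital layer faces the orbit and the global layer lies next to the globe. Tissue came from adult monkeys of the species Macaca mulatta, and the 4 groups were orbital layer, global layer, whole lateral rectus (the muscle that turns the eye outward) and whole medial rectus (the muscle that turns it inward). Each group has 2 arrays of each array type, 16 arrays in all, and no group received a treatment or carries an engineered allele per the labels. The 2 layers were cut by laser microdissection and needed amplification of their RNA by T7 polymerase, which whole muscle, labelled by the usual Affymetrix method, did not. Dissection and amplification therefore cannot be told apart from the difference between layers and whole muscle. No label says which arrays share an animal or whether animals were pooled, so p-values measure the spread between these samples, which may be technical, and 2 arrays a group limit the precision of every value.

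On U133A, the array titled as orbital layer replicate 1 has a conflicting source name, the global layer. Its group was taken from the title, and the members' differences and counts between the layers on U133A are given with and without this array. The source name of global layer replicate 1 on U133B names the layers without saying which. The titles of both lateral rectus arrays on U133A, and of a medial rectus array on each array type, carry no replicate number. The replicate numbers of these arrays were assigned here. Values are intensities on a linear scale, scaled so that each array has the same trimmed mean. Values under 146 on U133A or 218 on U133B, the pooled 20th percentile of each table, were treated as the floor, and values below it have no order in the limma tests. Tests were limited to probe sets whose mean log2 level in a comparison was at least that of the table's pooled median intensity, 654 for U133A and 803 for U133B.

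Of the 16 member probe sets on U133A, 10 were above the floor on all 8 arrays and 6 were below it on at least 1. All 11 skeletal muscle fibre markers were found on U133A, and their summed intensity was between 750526 and 1174880 on every array. The median intensity of an array was between 476 and 587 for the layers and between 788 and 852 for whole muscle on U133A. The ratio of the 3′ to the 5′ probe set of actin (ACTB), a measure of how complete the labelled RNA is, was 5.30 and 5.87 in the orbital layer, 2.84 and 2.88 in the global layer and between 0.716 and 1.04 in whole muscle. The same ratio of GAPDH on U133A was 1.73 and 2.00 in the orbital layer, 2.92 and 1.497 in the global layer, 1.16 and 1.05 in lateral and 1.66 and 0.947 in medial rectus. It overlapped there between the layers and between layers and whole muscle. On U133B the GAPDH ratio was 2.49 and 3.74 in the orbital layer and 4.33 and 2.04 in the global layer. In whole muscle it was between 1.18 and 1.74 on U133B, below all layer arrays. The part of these RNA measures in the results that follow was not tested.

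The FOS subunit of AP-1, which cannot bind DNA without a JUN partner, had the largest log2 difference of the members between the layers with the floor used here, though not with a floor at the 40th percentile, where ATF3 exceeded it. FOS (209189_at) had intensities of 660.3 and 792 in the orbital layer, 222 and 62.4 in the global layer, 65.3 and 120.1 in lateral and 87.9 and 95.01 in medial rectus. Only the orbital arrays and global replicate 1 were above the floor, and both orbital arrays lay above the other 6. Its mean level ranked orbital layer first, and the other 3 groups overlapped in their order. Counted against the floor of 146, the orbital mean was at least 4.94-fold higher than whole muscle, all 4 arrays of which were below the floor, as was global replicate 2. In bulk tissue such as this, fewer cells of a type and less RNA per cell cannot be told apart.

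FOSB, the second FOS family subunit, was near or below the floor everywhere. FOSB (202768_at) was 46.5 and 77.7 in the orbital layer, 79.8 and 91.3 in the global layer, 199 and 193 in lateral and 200.4 and 299 in medial rectus. All 4 layer arrays were below the floor and all 4 arrays of whole muscle were above it.

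The JUN subunit, which can pair with itself or with FOS proteins, was read by 4 probe sets that did not move together. JUN 201464_x_at was 4715 and 8698 in the orbital layer, 6007 and 5045 in the global layer, 6266 and 5139 in lateral and 4183 and 4864 in medial rectus, and of the groups that neighbour each other in the order of means, global layer and medial rectus alone did not overlap. JUN 213281_at was 732 and 447 in the orbital layer, 607 and 601 in the global layer, 1677 and 2936 in lateral and 3006 and 2450.2 in medial rectus. Every whole muscle array was thus above every layer array at this second probe set. JUN 201466_s_at was 1201 and 768 in the orbital and 753.4 and 753 in the global layer, and in whole muscle it ranged from 167 to 798. The fourth, JUN 201465_s_at, ranged from 54.2 to 395, was below the floor on 4 of the 8 arrays, and showed no order between groups.

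JUNB, a JUN family subunit that often restrains JUN, separated the layers from whole muscle with the trimmed mean scaling. JUNB (201473_at) was 1043 and 741 in the orbital layer, 747 and 983 in the global layer, 1474 and 1537 in lateral and 2098 and 1498 in medial rectus. The 2 layers overlapped, as did the 2 muscles, and no layer array reached a whole muscle array.

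JUND, the JUN family member that is expressed without a stimulus in many tissues, was also read differently by its probe sets. JUND 203752_s_at was 26644 and 33378 in the orbital layer, 21935 and 19641 in the global layer, 17619 and 21220 in lateral and 20851 and 22580 in medial rectus. Both orbital arrays were above the other 6, whose groups overlapped. JUND 203751_x_at ran from 82.3 to 393 in the layers and from 326 to 1136 in whole muscle, and JUND 214326_x_at ran from 77.5 to 312 in the layers and from 225 to 974 in whole muscle. Medial rectus replicate 2 was the lowest whole muscle array at both, and it overlapped the layers. JUND 229117_s_at on U133B was below the floor on all 4 arrays of whole muscle and ranged from 126 to 594 in the layers.

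ATF3, a stress-induced factor that pairs with JUN proteins, was highest in the orbital layer. ATF3 (202672_s_at) was 2183 and 2361 in the orbital layer, 1149 and 1534 in the global layer, 983 and 1023 in lateral and 913 and 1635 in medial rectus. Both orbital arrays were above the other 6, and the order of global layer, medial rectus and lateral rectus below them was within the spread of their arrays.

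EGR1, read by 3 probe sets, varied between arrays of a group. EGR1 201693_s_at was 539 and 807 in the orbital layer, 937 and 238 in the global layer, 863 and 949.7 in lateral and 1027 and 2162 in medial rectus. The lateral rectus arrays were above both orbital arrays and overlapped those of the global layer. EGR1 201694_s_at was between 2336 and 3981 in the layers and between 2736 and 3462 in whole muscle, and EGR1 227404_s_at on U133B was between 7887 and 21567 in the layers and between 8845 and 17229 in whole muscle. Layers and whole muscle overlapped at both, and at 227404_s_at the 2 global arrays were 21567 and 7887.

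IER2, a nuclear protein of the early response, had 1272 and 1616 in the orbital layer, 1129 and 1330 in the global layer, 1703 and 2710.3 in lateral and 2736 and 2789.9 in medial rectus (202081_at). With the trimmed mean scaling all whole muscle arrays were above all layer arrays, the closest being lateral replicate 1 and orbital replicate 2. IER3, which counters cell death, had 855 and 913 in the orbital layer, 819 and 619.8 in the global layer, 1016 and 951 in lateral and 651 and 175 in medial rectus (201631_s_at). Lateral rectus was highest, and medial rectus replicate 2 alone was far below the rest. MYC (202431_s_at) had 374 and 326 in the orbital layer, 93.0 and 142 in the global layer, 667 and 199.5 in lateral and 835 and 308 in medial rectus. Both global arrays were below the floor, and the 2 arrays of each whole muscle differed more than the 2 orbital arrays did.

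**Figure D1:**
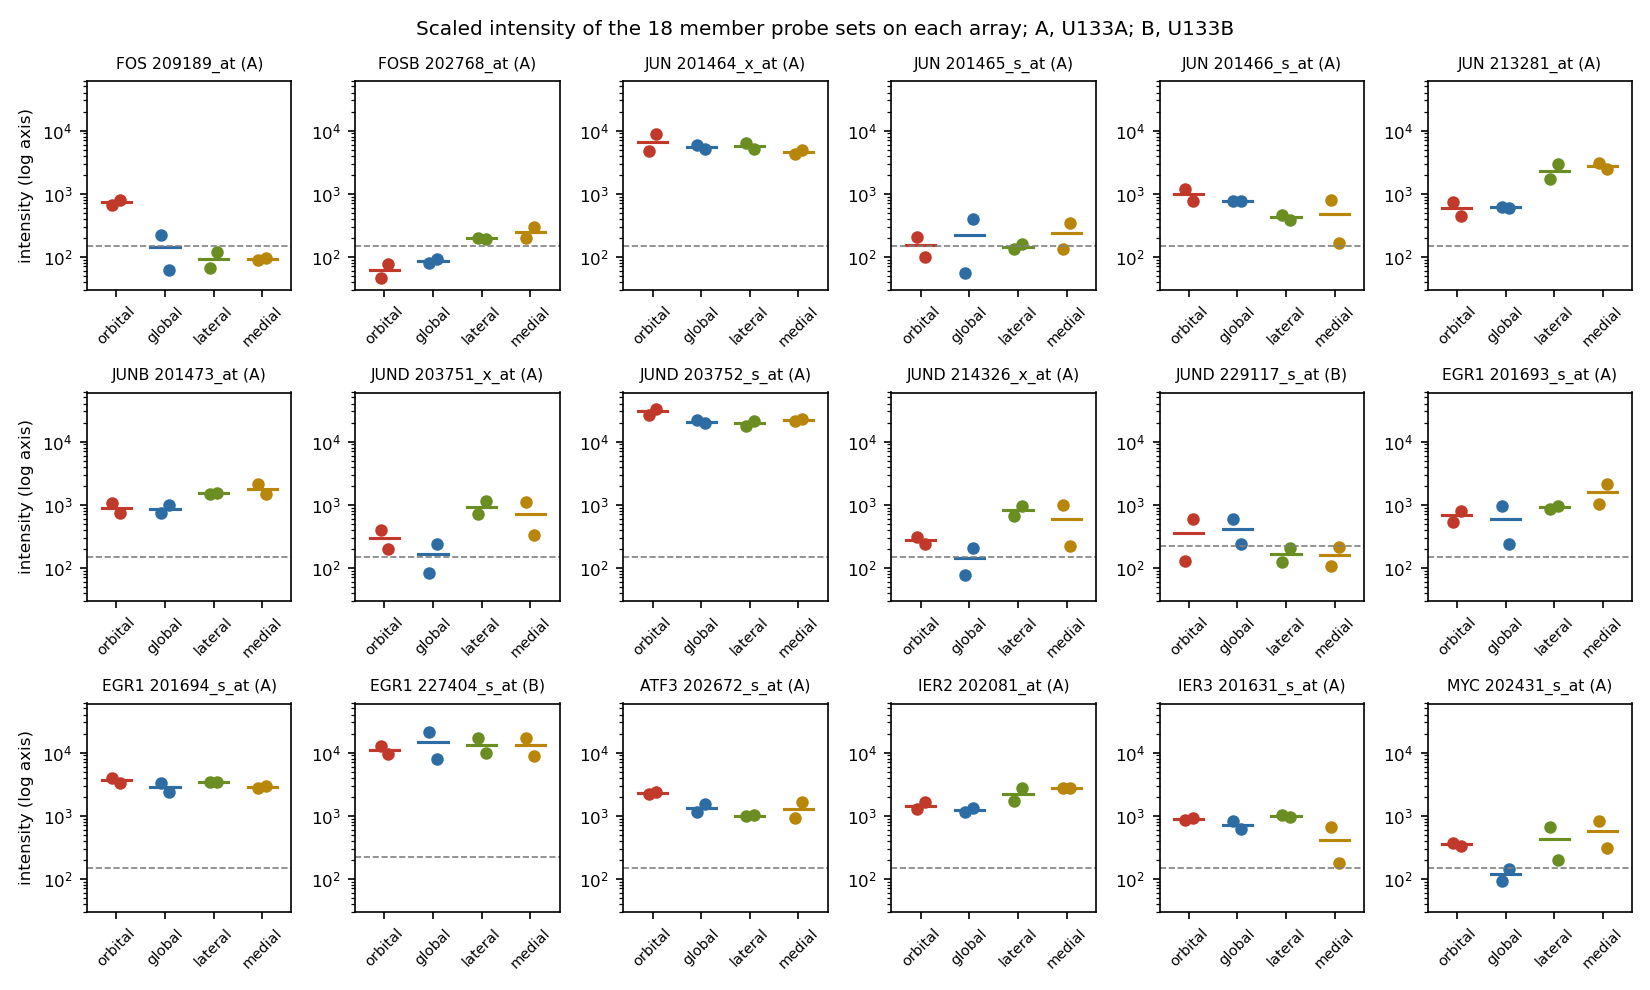
Scaled intensity on a log axis for member probe sets on every array, grouped by orbital layer, global layer, lateral rectus and medial rectus, with each point 1 array, each short line a group mean and the dashed line the floor. FOS lies above the floor on both orbital arrays and on global replicate 1, and JUN 213281_at, JUNB and IER2 lie lower on the 4 layer arrays than on the 4 whole muscle arrays.

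The first comparison asked how the 2 layers differ. FOS, MYC, ATF3 and IER3, with 2 of the 4 probe sets of JUND and 1 of the 4 of JUN, were higher on both orbital arrays than on both global arrays, but no member passed the test. Tests were made with limma, a linear model with variances moderated across all probe sets, and p-values were adjusted by the Benjamini-Hochberg method over all probe sets tested, with a threshold of adjusted p under 0.05. Of the 16 member probe sets on U133A, 8 were tested and 0 passed, where 0.409% of the 9532 probe sets tested passed (39, of which 27 were higher in the orbital layer). At an unadjusted p under 0.05 there were 2 members and 905 probe sets in all. On U133B, 1 of 2 members was tested and 0 passed, with 0.021% of 9510 probe sets called.

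ATF3 was higher in the orbital layer by 0.77 ± 0.27 (SE, n = 2 and 2) on the log2 scale, a 1.71-fold difference, with limma's adjusted p = 0.429. JUND 203752_s_at differed by 0.52 ± 0.22, or 1.44-fold, with limma's adjusted p = 0.510. The levels of FOS and MYC were too low for the filter, and their log2 differences with values raised to the floor were 2.00 and 1.25. In limma without the filter, FOS had an SE of 0.36 and adjusted p = 0.515. Both global arrays of MYC were below the floor, so its difference is a bound, and MYC was at least 2.39-fold higher in the orbital layer. With the floor at the 5th percentile the differences were 2.62 for FOS and 1.60 for MYC, and at the 40th percentile they were 0.75 and 0.00. Without the array of conflicting labels, the orbital minus global difference was 2.14 for FOS, 1.15 for MYC, 0.83 for ATF3 and 0.69 for JUND 203752_s_at, and none of the tested members passed. The orbital layer then had 1 array, which limma assumes to vary like the others. JUN 201466_s_at went from 0.35 to 0.028 without it, JUNB from 0.04 to -0.21 and JUN 201464_x_at from 0.22 to 0.66, whereas IER3 was at 0.36, IER2 at 0.40 and EGR1 201694_s_at at 0.21. Of those left out by the filter, JUN 213281_at went from -0.079 to -0.44, JUN 201465_s_at from -0.48 to -0.71 and EGR1 201693_s_at from 0.48 to 0.77. JUND 203751_x_at went from 0.56 to 0.064 and JUND 214326_x_at from 0.64 to 0.45.

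The other tested members differed by less than their uncertainty. IER3 differed by 0.31 (95% confidence interval from -0.47 to 1.09), JUN 201466_s_at by 0.35 (from -0.46 to 1.16) and EGR1 201694_s_at by 0.36 (from -0.29 to 1.02). For JUN 201464_x_at, IER2 and JUNB the differences were 0.22, 0.23 and 0.04. On U133B, EGR1 227404_s_at was at -0.25 (from -1.29 to 0.78). These intervals still allow differences of about the size of that of ATF3, so the arrays do not show that the layers have equal levels.

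Counted by direction, 13 of the 16 member probe sets on U133A were higher in the orbital layer, 2 were lower and FOSB was at 0, with a median log2 difference of 0.36. Over all probe sets of the table the median was 0.00, with 36.7% higher and 49.6% lower. The arrays of the 2 layers did not overlap for 8 of the 16, 7 higher in the orbital layer (from 6 genes) and 1 lower, FOSB, which was below the floor on all 4. Over all probe sets, 38% did not overlap, 14.1% with the orbital layer higher and 23.9% with it lower. Without the array of conflicting labels, 12 were higher and 3 lower, with a median of 0.38, against 33.9% and 50.6% of all probe sets. The arrays then did not overlap for 9 members higher and 3 lower in the orbital layer, where 24.4% and 42.9% of all probe sets did so. The higher side of the list had appeared in earlier results of these arrays and is no independent evidence, and several of the probe sets share a gene. Cell type markers moved with the layers as well. On U133A the summed intensity of 7 fibroblast markers was between 228773 and 260933 on the orbital and between 194158 and 196072 on the global arrays, and that of 7 smooth muscle and pericyte markers was between 38992 and 40717 against 36396 and 38269. The sum of 8 endothelial markers was lower in the orbital layer, between 16485 and 17203 against 19602 and 23814, and that of 4 adipocyte markers was also lower, between 1120 and 2155 against 3352 and 6605. Muscle fibre sums were between 750526 and 800160 in the orbital and between 829839 and 888629 in the global layer, those of 2 of 5 Schwann cell markers between 2093 and 2194 against 2450 and 4023, and those of 8 of 9 immune markers between 4877 and 5548 against 4296 and 4874. Of the fibre markers on U133A, MYH2, DES and MB had higher means in the orbital layer and the others had lower ones. Some markers went against the other U133A sums. These were COL1A2 among fibroblast, ACTA2, CNN1 and MCAM among smooth muscle, and TIE1 and ENG among endothelial markers. Of the immune markers, PTPRC, CD163, CD3E and S100A8 had lower means in the orbital layer. The Schwann cell sum was nearly all SOX10, as S100B was below the floor on both arrays of each layer. On U133B the fibroblast and the smooth muscle sums overlapped between the layers. On U133A the adipocyte markers ADIPOQ, PLIN1 and LEP were below the floor on both arrays of each layer. The adipocyte sum was thus nearly all FABP4, with means of 1464 in the orbital and 4802 in the global layer. The part of these cell types in the members' differences was not tested.

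**Figure D2:**
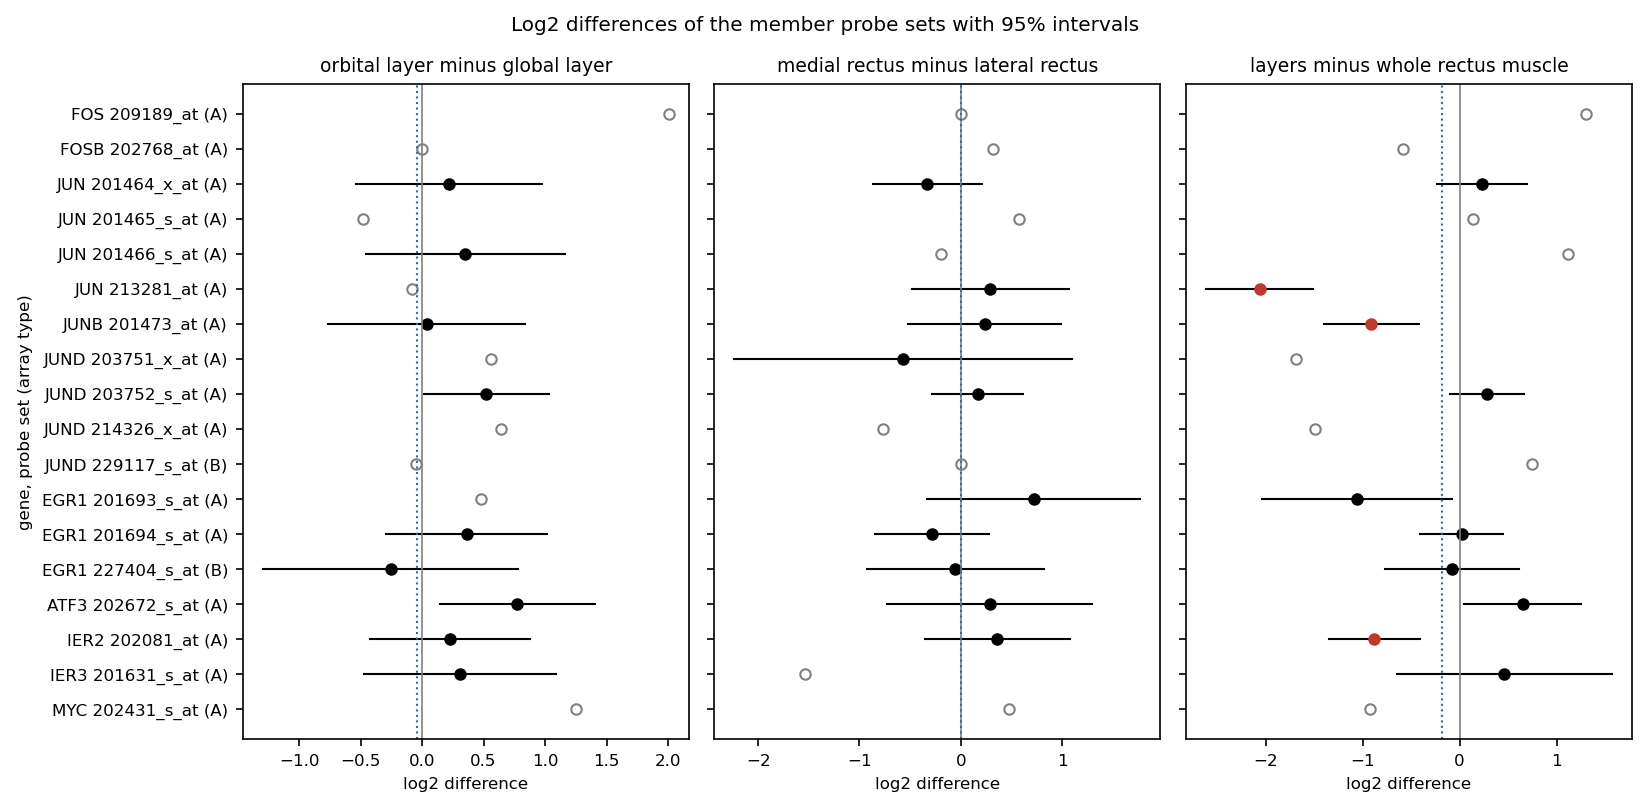
Log2 difference of each member probe set in the 3 comparisons, each panel with its own axis, as points with 95% confidence intervals where tested, red for adjusted p under 0.05, open grey for probe sets that the filter left out, and a dotted line for the median of all tested U133A probe sets. Red points appear only for JUN 213281_at, JUNB and IER2, on the lower side, in layers minus whole muscle.

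Among related genes, too, no probe set passed between the layers. Of other AP-1 and ATF family genes on U133A, 9 tested probe sets were higher and 10 lower (median -0.13). MAF, a basic leucine zipper factor, differed by -1.59 (limma adjusted p = 0.0968) and -1.36 (limma adjusted p = 0.0977) at its 2 probe sets, from means of 10869 ± 2209 and 9848 ± 1297 (SD, n = 2) in the global layer to 3642 ± 913 and 3841 ± 344 in the orbital layer. FOSL2, a FOS family subunit, differed by 1.06 on U133B (limma adjusted p = 0.429). Of other early response genes, 35 tested probe sets on U133A were higher and 26 lower (median 0.14), and 10 had an unadjusted p under 0.05. The inhibitor of DNA binding ID3 was at 3311 ± 122 (SD, n = 2) in the orbital and 1287 ± 118 in the global layer, a log2 difference of 1.37 (limma adjusted p = 0.0977). The serum-induced kinase SGK1 differed by 1.70, the matricellular protein CCN1 by 1.01 and the zinc finger factor KLF6 by 1.33, with limma's adjusted p from 0.185 for SGK1 to 0.357 for KLF6. SOCS3, an inhibitor of cytokine signalling, differed by 1.77 on U133B (limma adjusted p = 0.583).

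Without the array of conflicting labels, when the orbital layer had 1 array, SGK1 was at 2.24 and limma's adjusted p was 0.00151. That p takes the spread of the lone array from the others, while the 2 orbital arrays of SGK1 had a mean of 9245 ± 4679 (SD, n = 2). No other tested probe set of the 4 lists on U133A passed in that fit. MAF was then at -1.33 and -1.26, ID3 at 1.33 and CCN1 at 1.29. Upstream kinases and factors were at a median of -0.10 on U133A, with 16 tested probe sets higher and 20 lower. SRF, the serum response factor that acts on FOS and EGR1, was at 2479 ± 255 (SD, n = 2) in the orbital and 1571 ± 266 in the global layer, a difference of 0.66 (limma adjusted p = 0.488), and its coactivator MRTFB differed by 0.53. The calcium-dependent kinase gene CAMK2G was at -0.67 and the kinase gene MAP2K6 at -1.01. FBXW7, a ubiquitin ligase subunit that marks JUN and MYC proteins for breakdown, differed by 1.01 at 222729_at on U133B (limma adjusted p = 0.508). Of the MYC network on U133A, 8 tested probe sets were higher and 15 lower (median -0.12), and without the array of conflicting labels 12 and 11 (median 0.0057). Its members included LDHA, a glycolytic enzyme gene, at -0.97 and ODC1, NCL and FBL at 0.50, 0.39 and 0.44. On U133B, 4 of 9 tested probe sets of the MYC network and 11 of 17 of the upstream list were higher, and none passed.

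The second comparison asked whether medial and lateral rectus differ. No member passed, and no probe set of either array type did. On U133A, 9 of 16 members were tested and 0 passed, with 0% of 11907 probe sets called by limma. At an unadjusted p under 0.05 there were 333 probe sets, and none of the members was among them. On U133B, 1 of 2 members was tested and 0 passed, with 0% of 11836 called and 406 at an unadjusted p under 0.05. Every tested member had an adjusted p above 0.99.

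EGR1 201693_s_at was higher in medial rectus by 0.72 (95% confidence interval from -0.33 to 1.77), IER2 by 0.36 (from -0.35 to 1.07), JUN 213281_at by 0.29 (from -0.48 to 1.06) and ATF3 by 0.28 (from -0.72 to 1.29). JUND 203751_x_at was at -0.57 (from -2.23 to 1.10) and JUN 201464_x_at at -0.33 (from -0.87 to 0.21). IER3, left out by the filter here, was at -1.54, a difference that rests on medial rectus replicate 2. With 1 array left out, EGR1 201693_s_at was between 0.18 and 1.26, IER2 between 0.028 and 0.70 and JUN 201464_x_at between -0.47 and -0.19, while JUN 213281_at, ATF3 and JUND 203751_x_at changed sign. All 6 of these sizes thus depended on single arrays. The arrays of the 2 muscles did not overlap for 6 of the 16 members on U133A, 3 higher in medial rectus (FOSB, EGR1 201693_s_at and IER2) and 3 lower (JUN 201464_x_at, EGR1 201694_s_at and IER3), where 30.1% of all probe sets did not overlap. The 2 probe sets of EGR1 on U133A thus stood on opposite sides. The summed intensity of 8 of 9 immune cell markers found on U133A was between 9631 and 10036 on the lateral rectus arrays and between 5267 and 5937 on the medial rectus arrays. The neutrophil and monocyte genes S100A8 (means of 2693 against 644) and S100A9 (2059 against 336) made up most of that gap, while CD14, CD163 and TYROBP had higher means in medial rectus. The sum of 3 of 5 red blood cell markers was between 26541 and 33490 in lateral and between 9473 and 13497 in medial rectus. Nearly all of it was the haemoglobin gene HBB (means of 29255 against 10892), while SLC4A1, a red cell membrane gene, was at 481 against 476 and ALAS2 on U133B, at 2234 against 2758, overlapped between the muscles. Their part in these differences was not tested.

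Among related genes the smallest p-values between the muscles belonged to genes that were higher in lateral rectus as well as in medial rectus, and none passed. ZFP36, which speeds the decay of messenger RNA of early genes, was at 739 ± 75.7 (SD, n = 2) in medial and 1880 ± 226 in lateral rectus, a log2 difference of -1.35. KLF6 was at -1.60 on U133A and -2.04 on U133B, where its intensity was 491 ± 0.346 in medial and 2016 ± 98.3 in lateral rectus. NR4A1, a nuclear receptor of the early response, was at 1.11, and the calcium-dependent kinase gene CAMK4 at 1.33. Limma's adjusted p was 0.999 for each of these on U133A and 0.991 for KLF6 on U133B. The medians of the 4 lists were between -0.06 and 0.02 on U133A and between -0.35 and -0.04 on U133B, where the MYC network had 3 tested probe sets higher in medial rectus and 10 lower.

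The third comparison set the 4 layer arrays against the 4 arrays of whole muscle, across which dissection and amplification differ too. JUN by 213281_at, JUNB and IER2 were called lower in the layers than in whole muscle. With the trimmed mean scaling, no member was called higher. By direction, 8 of the 16 member probe sets on U133A were higher in the layers and 8 lower, against 31.0% and 64.9% of all probe sets. On U133A, 9 of the 16 members were tested and 3 passed, all lower, where 48.7% of 10533 probe sets passed (1964 higher and 3168 lower). On U133B, 1 of 2 members was tested and 0 passed, with 42.8% of 10547 called.

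JUN 213281_at had a mean of 597 ± 117 (SD, n = 4) in the layers and 2517 ± 613 (SD, n = 4) in whole muscle, a log2 difference of -2.06 ± 0.25 (SE) or 4.18-fold, with limma's adjusted p = 0.000119. JUNB had means of 878 ± 157 and 1652 ± 298, a difference of -0.91 ± 0.22, with limma's adjusted p = 0.00590. IER2 had means of 1337 ± 205 and 2485 ± 522, a difference of -0.88 ± 0.22, with limma's adjusted p = 0.00588. Without the array of conflicting labels these differences were -2.17, -1.001 and -0.86, and limma's adjusted p stayed under the threshold. Markers of other cells also differed here. On U133A the smooth muscle and pericyte sum was between 36396 and 40717 in the layers and between 18246 and 29595 in whole muscle. ACTA2, MYH11 and RGS5 had higher means there in both layers than in either muscle. PDGFRB had lower ones, and TAGLN, CNN1 and MCAM were mixed. On U133B, with 4 of 7 markers found, the smooth muscle and pericyte sum was lower in the layers, between 5286 and 6477 against 6953 and 11168. Fibroblast sums overlapped on U133A, and on U133B, with 4 of 7 markers found, they were between 12825 and 18302 against 6401 and 7727. COL3A1 and COL1A2 made up most of that U133B gap, and LUM had higher means in the layers too. DCN went the other way on U133B, with means of 815 in the orbital and 845 in the global layer. Its means were 2427 in lateral and 2620 in medial rectus. Muscle fibre sums on U133A were lower in the layers, between 750526 and 888629 against 942857 and 1174880, and on U133B, with 2 of 11 markers found, higher, between 9822 and 19644 against 5183 and 7707. On U133A the fibre markers TTN, TNNC2, ATP2A1, CKM and DES had lower means in both layers than in either muscle. ACTA1 and MYH13 had higher means in both layers, and the other fibre markers were mixed. Nearly all of the U133B fibre sum was TTN. Endothelial, adipocyte and immune sums on U133A overlapped between layers and whole muscle. Their markers ADIPOQ, PLIN1, LEP, PTPRC, CD3E, S100A8, S100A9, VWF and TEK had lower means in both layers than in either muscle. PECAM1 and CLDN5 had higher ones, and the others of these lists were mixed. The part of these cells in the members' differences was not tested. With the trimmed mean scaling, the arrays of layers and whole muscle did not overlap for 4 of the 16 members, FOSB with these 3, all lower in the layers. Over all probe sets 36.5% did not overlap, 27.2% with the layers lower and 9.30% with them higher.

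The calls of JUNB and IER2 depended on how the arrays were scaled. Their layer and whole muscle arrays also overlap when each array is scaled to a common median. With each array scaled to a common median in place of the trimmed mean, the median difference of all tested probe sets on U133A moved from -0.18 to 0.46, JUNB was at -0.28 (limma adjusted p = 0.324) and IER2 at -0.24 (limma adjusted p = 0.394). With quantile normalization that median was 0.00, JUNB was at -0.44 (limma adjusted p = 0.145) and IER2 at -0.61 (limma adjusted p = 0.0491). JUN 213281_at passed under both, at -1.43 and -1.64. The share of calls on U133A that were higher in the layers was 38.3% with the trimmed mean, 80.2% with the median and 50.4% with quantile normalization, and on U133B it was 47.8%, 80.8% and 55.7%.

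ATF3 and EGR1 201693_s_at were close to the threshold. ATF3 was higher in the layers by 0.65 ± 0.28 (SE, n = 4 and 4) with limma's adjusted p = 0.0721, and under quantile normalization and median scaling it passed at 1.02 and 1.29. Without global replicate 1 it was at 0.85 (limma adjusted p = 0.0216), and without medial replicate 2 at 0.84 (limma adjusted p = 0.0285). EGR1 201693_s_at was lower in the layers by 1.06 ± 0.45, which did not pass (limma adjusted p = 0.0699), and passed without global replicate 1 at -1.31 (limma adjusted p = 0.0393). The brightest probe sets of JUN, JUND and EGR1 on U133A differed little, at 0.23, 0.28 and 0.02. All 3 passed on the higher side under median scaling, at 0.87, 0.92 and 0.66, and JUN and JUND turned to -0.0068 and -0.25 under quantile normalization. IER3 was at 0.46 (95% confidence interval from -0.64 to 1.57), and EGR1 227404_s_at on U133B at -0.076 (from -0.76 to 0.61). Among members left out by the filter, FOS was at 1.30, a difference carried by the orbital arrays, JUN 201466_s_at at 1.12, MYC at -0.93, and JUND 203751_x_at and 214326_x_at at -1.68 and -1.49. The median over the 16 members was -0.28, and over all probe sets of U133A it was -0.29.

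**Figure D3:**
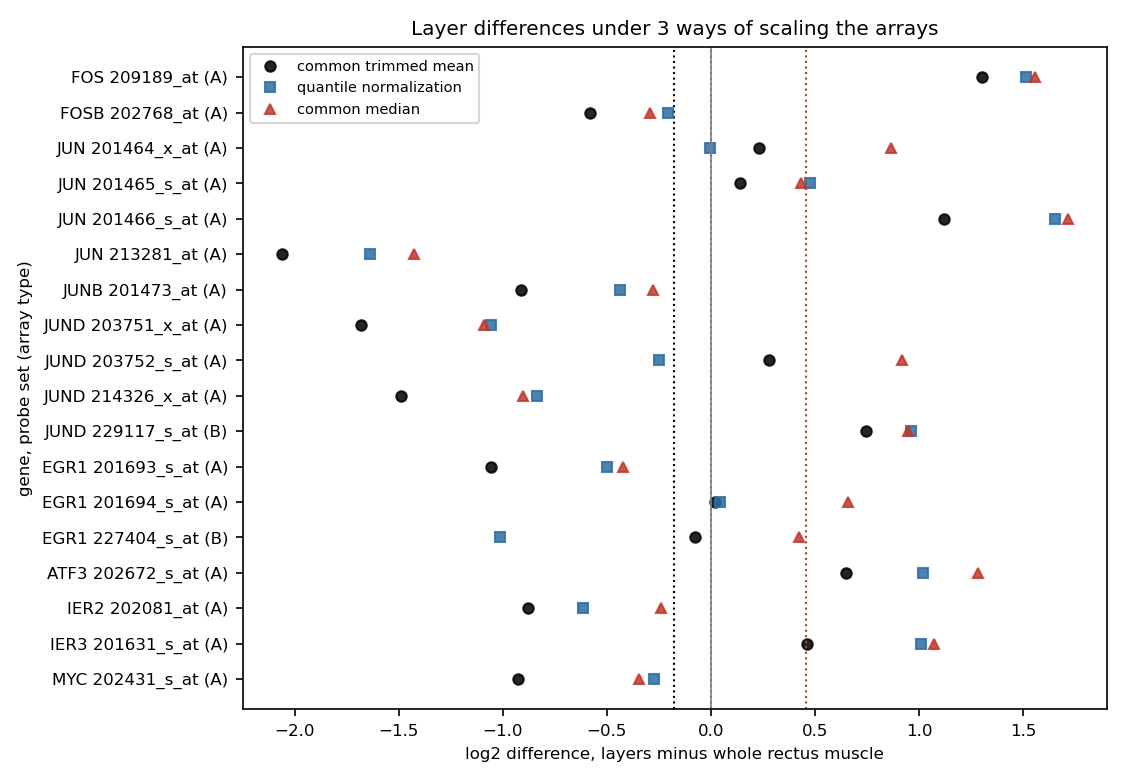
Log2 difference of layers minus whole muscle for all 18 member probe sets, tested or not, under trimmed mean scaling, median scaling and quantile normalization, with dotted lines at the median of all tested U133A probe sets under each. JUN 213281_at stays between -2.06 and -1.43, whereas JUNB and IER2 move towards 0 and the brightest probe sets of JUN and JUND lie on either side of 0.

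The brightest U133A probe set of JUN, JUND and EGR1 was also set against each other one of its gene within an array. This choice was made after the values were seen. Scaling an array by a common factor leaves such a ratio unchanged, but quantile normalization can change it. Under quantile normalization JUN 213281_at and 201464_x_at were at -1.64 and -0.0068, against -2.06 and 0.23 with the trimmed mean. The log2 ratio of JUN 213281_at over 201464_x_at was between -4.28 and -2.69 on the layer arrays and between -1.90 and -0.48 on whole muscle. These ranges do not overlap, and the mean difference between layers and whole muscle was -2.29, or 4.90-fold, with p = 0.0286 in a two-sided exact permutation test, the smallest p that 4 against 4 arrays allow, and 0.171 after Benjamini-Hochberg adjustment over the 6 ratios tested. The ratio of JUND 203751_x_at over 203752_s_at differed by -2.17 (exact permutation p = 0.0571), that of JUND 214326_x_at over 203752_s_at by -2.001 (exact permutation p = 0.0857) and that of EGR1 201693_s_at over 201694_s_at by -1.08 (exact permutation p = 0.143). For JUN 201465_s_at and 201466_s_at over 201464_x_at the differences were -0.52 and 0.89 (exact permutation p = 0.571 and 0.229). The ranges of these other 5 ratios overlapped between layers and whole muscle, and none of the 6 passed after adjustment. These ratios used values below the floor as they stood. With values raised to the floor, the JUND differences were -1.96 and -1.77, that of JUN 201465_s_at was -0.093, and none of the 6 passed. Such a ratio does not say which of 2 probe sets follows the messenger RNA.

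**Figure D4:**
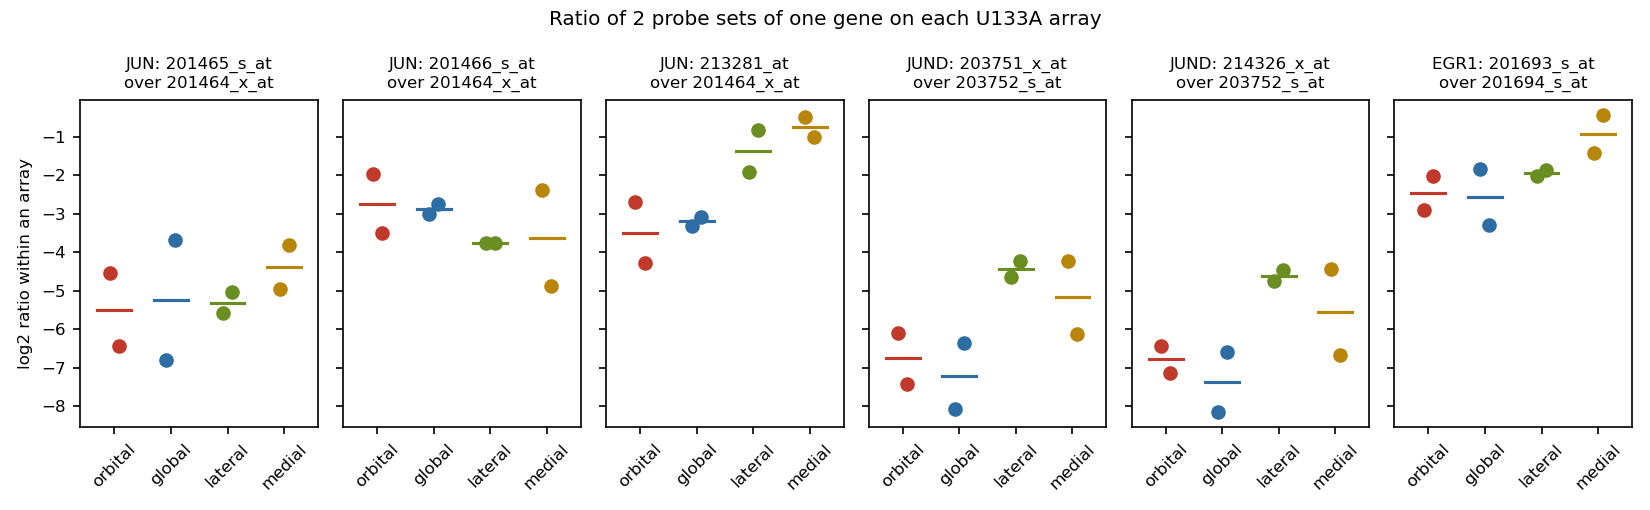
Log2 ratio of a probe set of JUN, JUND or EGR1 to the brightest one of its gene within each U133A array, by group, with each point 1 array and each short line a group mean. The ratio of JUN 213281_at lies between -4.28 and -2.69 on the layer arrays and between -1.90 and -0.48 on the whole muscle arrays, and the other ratios overlap.

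Probe sets of one gene followed each other in one case only. Over the 8 arrays of U133A, JUND 203751_x_at and 214326_x_at had a Pearson r of 0.98, whereas each was at -0.36 or -0.29 with JUND 203752_s_at. For JUN the 6 pairs were between -0.60 and 0.21, and the pair of EGR1 was at 0.26. These correlations describe 8 arrays that share groups and preparation, and carry no test. The probes were designed on human sequence and read macaque RNA here, which may differ at probe positions, and the probe sequences were not used here.

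By the same measure over 8 arrays, the genes with a pattern most like each member were found among 9291 probe sets of U133A. The most alike were KCND3 (0.91) and MTMR2 (0.90) for JUN 201464_x_at, PRDX2 (0.98) and RPL36 (0.98) for JUNB, and SRSF3 (0.94) and PLBD1 (0.94) for JUND 203752_s_at. For EGR1 201694_s_at they were SLC33A1 and SYDE1 (both 0.93), for ATF3 SMG5 (0.99) and CETN2 (0.98), for IER2 ELK1 and HMCES (both 0.98), and for IER3 SFSWAP (0.98) and PRDM4 (0.98). On U133B, EDN1 (0.94) and UBA6 (0.93), among 7899 probe sets, were nearest to EGR1 227404_s_at. With so many candidates and 8 arrays, high values of r are easily reached. The search took the brightest probe set of each gene on each array type, and FOS, FOSB, MYC and JUND on U133B were too dim for it.

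Between layers and whole muscle, related genes moved in both directions, as the whole table did. Of all probe sets on U133A, 1964 rose and 3168 fell, against 4375 and 1083 under median scaling and 2073 and 2043 under quantile normalization, so the split into higher and lower moved with the scaling. On U133B 2157 rose and 2353 fell, against 3226 and 765, and 1839 and 1464. Of other AP-1 and ATF family genes, 5 of 22 tested probe sets on U133A rose in the layers and 7 fell, and 7 of 19 rose and 2 fell on U133B. CREM, a cyclic AMP responsive factor, rose by 1.49 at 209967_s_at, while ATF7 206684_s_at and the stress sensor ATF6B fell by 1.66 and 1.46. CREB1, which acts on the FOS promoter, fell by 1.75 at 214513_s_at and rose by 1.18 at 204314_s_at on U133A and by 2.46 at 225572_at on U133B. Its relative CREB5 rose by 1.84 on U133B. All of these passed in the same direction under the other 2 scalings. CREB1 also fell by 1.07 at 204312_x_at (limma adjusted p = 0.00409) and by 1.16 at 237289_at on U133B (limma adjusted p = 0.0315), but both calls were lost under median scaling (limma adjusted p = 0.144 and 0.213) and under quantile normalization (limma adjusted p = 0.107 and 0.191). Another probe set of CREM, 214508_x_at, fell by 0.77 and was lost under median scaling (limma adjusted p = 0.625), and on U133B ATF7 rose by 1.37 at 228829_at and by 0.96 at 244587_at. The last of these was lost under quantile normalization (limma adjusted p = 0.207). Under median scaling the U133A counts of this list were 9 higher and 3 lower, and under quantile normalization 5 and 5.

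Of other early response genes, 20 of 65 tested probe sets on U133A rose and 17 fell. The phosphatase DUSP6, which switches off ERK, rose by 2.13 at 208891_at, from 2108 ± 326 (SD, n = 4) in whole muscle to 9388 ± 2394 in the layers. The growth arrest genes GADD45B and GADD45A rose by 2.59 and 1.54, and the survival gene MCL1 fell by 1.60 at 214057_at and by 0.92 at 200798_x_at. The latter was lost under median scaling (limma adjusted p = 0.306), and MCL1 200797_s_at was on the other side, at 0.22 (limma adjusted p = 0.391), or 0.86 under median scaling (limma adjusted p = 0.00479). On U133B 1 of 14 rose, the kinase gene PIM3, and 2 fell, KLF2 at -1.28 and PLK3 at -2.30. A U133A probe set of KLF2 rose by 0.56, and was lost under quantile normalization (limma adjusted p = 0.557). Under median scaling the U133A counts were 33 higher and 6 lower, and under quantile normalization 18 and 11. GADD45B was left out by the filter under quantile normalization, and PLK3 under median scaling.

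Of upstream kinases and factors, 11 of 41 tested probe sets rose and 14 fell on U133A, and 8 of 18 rose and 1 fell on U133B. FBXW7 rose by 2.91 at 218751_s_at, from 1367 ± 299 (SD, n = 4) to 10407 ± 3013, and by 1.70 at 229419_at on U133B, where 222729_at was at -0.57 (limma adjusted p = 0.135). The acetyltransferase EP300 rose by 1.90 at 213579_s_at and the serum response factor partner ELK4 by 2.32, while the kinase gene MAPK9 fell by 1.56 at 210570_x_at and rose by 1.74 at 203218_at, and ELK1, another such partner, fell by 1.78 at 210376_x_at. The direction and the call of the rises and falls named here were kept under the other scalings, whereas GSK3B 226191_at, at 1.32 on U133B, was lost under quantile normalization (limma adjusted p = 0.233). Under median scaling the U133A counts of this list were 20 higher and 6 lower, and under quantile normalization 11 and 8.

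Of the MYC network, 8 of 22 tested probe sets on U133A rose and 2 fell, and 5 of 10 rose and 2 fell on U133B. MYCBP2, a MYC binding protein gene, rose by 1.77 and the MYC antagonists MNT and MXD1 by 1.10 and 1.47. NPM1, a nucleolar protein gene, was at 0.85 on U133A and 1.62 on U133B and was lost under quantile normalization (limma adjusted p = 0.0621 and 0.0743). The cyclin gene CCND2, at -0.95, was lost under median scaling (limma adjusted p = 0.122). Under median scaling the MYC network counts on U133A were 13 higher and 0 lower, and under quantile normalization 4 and 3.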

How the data were processed

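RNA of 16 arrays was measured, 8 on U133A and 8 on U133B. Each probe set has 1 intensity per array in the deposited files. The 2% trimmed mean of every array lay from 1500.22 to 1500.67, so the authors' deposited intensities had been scaled. No source used here names the authors' method of summarising probes or their detection calls. Samples were grouped by title.

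Here the arrays were brought to one 2% trimmed mean, raised to the floor, put on the log2 scale and filtered as described, without the 68 control probe sets of each table. The tables were tested separately with limma 3.58.1 in R 4.3.3 with an intensity trend, two-sided, and the procedure was tested on simulated data. Summaries used Python 3.11.15, pandas 2.3.3 and scipy 1.17.1, and figures matplotlib 3.10.9. Alternatives changed the scaling, floor, filter, trend, groups in the fit, replicate block and each array in turn. Symbols came from the platform annotation, where 19071 probe sets of U133A carried 1 symbol, 1043 several and 2169 none, and on U133B 15432, 554 and 6659.

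The members and lists were chosen with earlier results of these data known. The rule named all members, list genes past the threshold and up to 4 a list with the smallest p, and the 2 most alike genes. For layers against whole muscle, where many list genes passed, the rest are given as counts.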

Additional observations from a re-analysis of the deposited data

Results flagged for a closer look

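In groups of 4 arrays, 1 array stood apart from the other 3 by Dixon's test for 5 of 33 groups of member values. Chance gives about 1 in 20 for 4 values drawn from one normal distribution. Here each group pools 2 layers or 2 muscles, and the probe sets share arrays, so that rate is only a rough guide. Among whole muscle arrays, FOSB was highest on medial rectus replicate 2, at 298.9, and JUN 201465_s_at was highest on the same array, at 347.8. JUNB was highest on medial rectus replicate 1, at 2098. IER2 was lowest on lateral rectus replicate 1, at 1703. Among layer arrays, JUN 201466_s_at was highest on orbital layer replicate 1, at 1201, the array whose labels conflict. No cause was tested for any of them.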

How the results depend on the processing

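No tested member passed between the layers or between the muscles under any alternative run. Between the layers, FOS, FOSB, MYC, JUN 201465_s_at and all JUND probe sets but 203752_s_at were tested only without the filter, where no probe set passed. Between the muscles the same held for the testing of FOS, FOSB, MYC, JUN 201465_s_at, JUN 201466_s_at and JUND 229117_s_at. Between the layers on U133A, 39 probe sets passed, against 21 with median scaling, 21 with quantile normalization, 12 without the trend, 0 without the filter and 68 to 144 with 1 array left out. On U133B 2 passed, against 0 with quantile normalization, a floor at the 5th percentile, no filter or no trend, 10 with all 4 groups in one fit, 19 with the 40th percentile as floor, 23 with the 75th as filter and 0 to 28 with 1 array left out. The members' median of 0.36 was 0.14 with the floor at the 40th percentile. The replicate block gave 92 calls for U133A and 26 for U133B, no member among them. Same-numbered layer arrays deviated together with a correlation of 0.23 on U133A and 0.09 on U133B, and they share only a number. No paired analysis was run for the other comparisons. Between the muscles, and for layers against whole muscle on U133A, the labels share fewer than 2 numbers. On U133B the layers and lateral rectus share both replicate numbers, but no label says that such arrays belong together.

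Between the muscles on U133A, 0 probe sets became 7 with the 75th percentile as filter and 0 to 9 with 1 array left out. For layers against whole muscle on U133A, 3 members passed, against 5 with median scaling, 5 without the filter, 1 with the 75th percentile as filter, where JUN 213281_at and JUNB were not tested, and 3 to 5 with 1 array left out. The members' median of -0.28 was 0.10 with median scaling, -0.58 with a floor at the 5th and 0.00 with a floor at the 40th percentile. With the 75th percentile as filter, which tests fewer probe sets, 2513 passed on U133A and 2799 on U133B in place of 5132 and 4510. On U133B 1 member, EGR1 at -1.02, passed with quantile normalization.

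Some small differences changed sign. For layers against whole muscle, quantile normalization put JUN 201464_x_at at -0.0068 and JUND 203752_s_at at -0.25, and median scaling put EGR1 227404_s_at at 0.42. Between the muscles, quantile normalization put EGR1 227404_s_at at 0.16. With 1 array left out, the ranges for layers against whole muscle were -0.090 to 0.17 for EGR1 201694_s_at, -0.11 to 0.58 for IER3 and -0.36 to 0.12 for EGR1 227404_s_at. Between the muscles they were -0.14 to 0.70 for ATF3, -0.11 to 0.69 for JUN 213281_at, -0.0067 to 0.48 for JUNB, -0.91 to 0.32 for JUND 203751_x_at and -0.54 to 0.43 for EGR1 227404_s_at. Between the layers they were -0.22 to 0.66 for JUN 201464_x_at, -0.21 to 0.28 for JUNB and -0.98 to 0.47 for EGR1 227404_s_at. The cause was not tested unless named. Low signal limits FOS, FOSB, MYC and the dimmer probe sets of JUN and JUND, whose differences depend on the floor.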
